A study of Mus musculus with 16 samples.

Results

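Nuclear receptor genes were followed through the liver RNA-Seq of male C57BL/6J mice. They are 34 gene symbols among 50559 in the deposited table of counts, listed by name with earlier results of these data known. All 34 were found, and 33 of them had enough counts to be tested among 18335 genes. Vdr, which encodes the vitamin D receptor, did not, with 0, 2, 8 and 0 counts in the LFD, 2, 4, 0 and 1 in the HFD, 2, 0, 1 and 1 in the HFD + siRNA and 1, 0, 3 and 16 in the HFD + Inhib libraries.

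Mice ate a low-fat diet (LFD, chow in the labels) or a high-fat diet (HFD) for 10 weeks from 6 weeks of age, and 4 libraries were made in each of 4 groups. From week 6 on, for 4 weeks, the 2 groups with no KHK treatment, LFD and HFD, were gavaged 2 times daily with methylcellulose and were injected every 2 weeks with luciferase control siRNA at 10 mg/kg. The HFD + siRNA group ate the HFD and had siRNA against total ketohexokinase (KHK), the first enzyme of fructose breakdown, at 20 mg/kg, with the same methylcellulose. The HFD + Inhib group ate the HFD and had the control siRNA at 10 mg/kg, with the KHK inhibitor PF-06835919 at 15 mg/kg in the gavage. The siRNA carries N-acetylgalactosamine, a sugar that hepatocytes take up, whereas the inhibitor is systemic, and the dose of control siRNA was not matched to that of KHK siRNA. All mice had an injection of saline or insulin shortly before the liver was frozen, and which libraries came from insulin is not given in the sources used here. The labels do not say that each library is a separate mouse, so p-values measure the spread between these libraries.

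Nuclear receptors are transcription factors that bind small lipid-soluble ligands, such as fatty acids, oxysterols, bile acids, retinoids, thyroid hormone and steroids, and switch genes on or off according to what is bound. Many of them pair with a retinoid X receptor (RXR), and many recognize variants of the hexamer AGGTCA in DNA. In liver, PPARα governs the oxidation of fatty acids, LXRs and FXR govern sterols and bile acids, PXR and CAR govern the clearance of foreign compounds, and HNF4α holds much of the hepatocyte program. The amount of receptor RNA is one layer of their regulation, and ligands and protein changes, which RNA does not show, are others.

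Library totals were 24317111 to 35820234 counts (median 29570114). Levels are CPM, counts scaled to a common library total after TMM normalization, and a gene is called where the adjusted p of edgeR's quasi-likelihood test, corrected over all 18335 genes, was under 0.05. Khk was at 251, 322, 233 and 251 CPM in the HFD libraries and at 11.8, 9.14, 18.1 and 11.5 CPM in the HFD + siRNA libraries, 20.9-fold lower (log2 fold change -4.38 ± 0.23 (SE), adjusted p = 1.88e-08). In the HFD + Inhib libraries it was at 112, 152, 94.6 and 120.5 CPM, 2.21-fold lower than in HFD (log2 fold change -1.14 ± 0.20 (SE), adjusted p = 0.000752). The HFD and HFD + siRNA libraries were far apart, and the HFD + Inhib libraries lay between them without overlap. Of the 9 hepatocyte markers, all were detected, with Alb the most abundant, so the tissue matched its label. In RNA from whole liver, fewer cells of a type and less RNA per cell cannot be told apart.

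Compared per length of transcript, the receptor genes spanned from 0.188 to 129.9 CPM per kb over the 16 libraries. Ppara (PPARα) was at 129.9, Hnf4a (HNF4α) at 115 and Rxra, the RXR of hepatocytes, at 83.2 CPM per kb, above 97.5%, 97% and 96% of the tested genes with a length. Nr1h4, the bile acid receptor FXR, followed at 50.4 CPM per kb. The order of the leading pair depended on the group. In LFD, Hnf4a was at 127 ± 10.4 (SD, n = 4) and Ppara at 79.9 ± 9 CPM per kb. In HFD they were at 111 ± 6.59 and 139.97 ± 27.2 CPM per kb. In HFD + siRNA they were at 127 ± 9.18 and 128 ± 7.99, which is within their spread, and in HFD + Inhib at 96.1 ± 7.1 and 172 ± 18.1 CPM per kb. Per length, Ppara was thus the lower of the pair on LFD and the higher on HFD, with or without the inhibitor. This order rests on the annotated length of the longest coding transcript of each gene. Before division by length, the HFD means were 478 ± 92.9 CPM (SD) for Ppara and 485 ± 28.7 CPM for Hnf4a.

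Nr1i3 (CAR), Nr0b2 (SHP, a corepressor without a DNA-binding domain), Nr1h3 (LXRα) and Nr2f6 lay within 28.3 to 32.9 CPM per kb, and their order changed from group to group. Nr1i3 and Nr2f6 need care, because 74.9% of the exon bases of Nr1i3 lie over Tomm40l and 54.4% of those of Nr2f6 over Ocel1 on the opposite strand, and whether the counting used strand is not stated. The opposite strand also holds Top2b over 34.1% of Rarb, Mrps25 over 30.7% of Nr2c2, and shorter stretches over Nr2f2 (7.46%) and Thra (5.7%, of Nr1d1). Of the genes over the longer stretches, Tomm40l, Ocel1, Top2b and Mrps25, none was called in any comparison. Genes over the shorter stretches are not covered by this. Nr1i2 (PXR), Nr3c1 (the glucocorticoid receptor) and Nr5a2 (LRH-1) followed at 20.7, 17.2 and 17.1 CPM per kb. The order of the last pair also changed from group to group, within their spread except in HFD + Inhib. There Nr3c1 was at 17.7 ± 1.3 and Nr5a2 at 15.5 ± 1.5 CPM per kb (SD). Thrb, the main thyroid hormone receptor of liver, was at 10.8 and Thra at 8.4 CPM per kb. Pparg (PPARγ, the receptor of fat cells) was at 4.7 CPM per kb, far below Ppara. Nr4a2 and Nr2f1 were lowest at 0.362 and 0.188 CPM per kb.

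**Figure D1:**
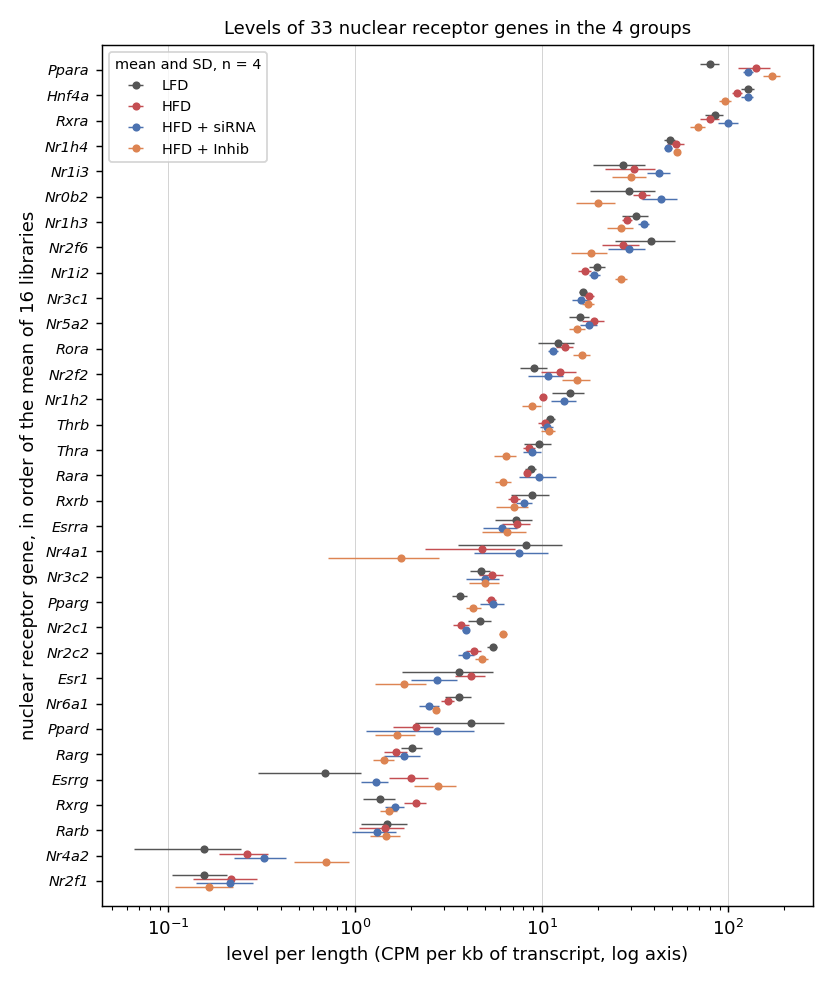
Levels of the 33 tested nuclear receptor genes in CPM per kb of transcript on a log axis, with points for group means and bars for SD (n = 4). Ppara, Hnf4a and Rxra lie at the top, and the LFD point of Ppara sits below its 3 HFD points.

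Promoter sequence is shown for 4 of the genes whose RNA differed between groups, since their starts differ in kind. RefSeq (build GRCm38.p6) held promoters of 32 of the 34 genes, 51 promoters in all, and the 250 bases before each start were searched on both strands. Capitals mark the GC box GGGCGG, the TATA box TATAAA and the receptor hexamer AGGTCA, or their reverse complements. Ppara is shown from chr15:85735526-85735775 (plus strand), the second promoter of Pparg from chr6:115362099-115362348 (plus strand), Nr0b2 from chr4:133553126-133553375 (plus strand) and Nr1i2 from chr16:38294825-38295074 (minus strand), each 5′ to 3′.
Ppara: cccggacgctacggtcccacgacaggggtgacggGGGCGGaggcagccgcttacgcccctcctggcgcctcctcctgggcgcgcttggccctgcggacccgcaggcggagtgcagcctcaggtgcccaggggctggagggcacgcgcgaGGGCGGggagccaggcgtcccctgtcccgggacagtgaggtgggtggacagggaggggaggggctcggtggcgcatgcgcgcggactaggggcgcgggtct
Pparg: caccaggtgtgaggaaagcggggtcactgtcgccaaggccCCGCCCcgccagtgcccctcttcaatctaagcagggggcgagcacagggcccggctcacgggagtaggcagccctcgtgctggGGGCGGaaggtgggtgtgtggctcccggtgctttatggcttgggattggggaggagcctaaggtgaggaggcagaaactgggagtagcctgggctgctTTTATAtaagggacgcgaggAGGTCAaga
Nr0b2: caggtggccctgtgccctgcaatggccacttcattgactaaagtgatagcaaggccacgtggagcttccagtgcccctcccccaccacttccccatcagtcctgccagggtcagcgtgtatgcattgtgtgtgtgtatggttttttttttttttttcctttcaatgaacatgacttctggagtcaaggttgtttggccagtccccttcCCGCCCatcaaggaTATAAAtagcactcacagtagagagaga
Nr1i2: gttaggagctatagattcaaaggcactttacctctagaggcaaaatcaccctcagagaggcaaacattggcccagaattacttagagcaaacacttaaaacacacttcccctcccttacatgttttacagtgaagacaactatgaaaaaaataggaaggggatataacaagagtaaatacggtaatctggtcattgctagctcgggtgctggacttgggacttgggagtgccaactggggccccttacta

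The Ppara stretch held 2 GC boxes and no TATA box, the Nr0b2 stretch held 1 GC box and 1 TATA box close to the start, the Pparg stretch held 2 GC boxes, 1 TATA box and 1 hexamer, and the Nr1i2 stretch held none of these letters. Over the receptor genes, the GC box was in 24 of 51 promoters (47.1%, against 32.7% of 32851 promoters in the table), the TATA box in 6 (11.8% against 12.4%) and the hexamer in 9 (17.6% against 14%). Repeats of the hexamer in the same direction 1 base (DR1) or 4 bases (DR4) apart, its inverted repeat 1 base apart (IR1), and the extended hexamer TCAAGGTCA, which all contain AGGTCA, were in none of the 51 and in 0.0335%, 0.0152%, 0.00609% and 0.387% of all promoters. A match gives letters only, and RNA counts do not measure what binds there.

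The comparison of HFD with LFD asks what the diet does. On HFD, the genes of the fatty acid receptors PPARα and PPARγ, of RXRγ and of ERRγ rose, and those of LXRβ and the paired orphan receptors TR2 and TR4 fell. These were 7 of 33 receptor genes (21.2%), 4 higher and 3 lower, against 18.4% of all genes called (9.58% higher, 8.8% lower). The median log2 fold change of the receptor genes was -0.025, and that of all tested genes -0.011. The LFD and HFD libraries did not overlap in 8 of the 33 receptor genes (24.2%), the 7 and Hnf4a, and in 20.4% of all genes. With GC content and length of the transcripts fitted, the 7 calls stayed and Thrb was added. That fit thus called 8 of 33 receptor genes (24.2%), against 15% of all genes, and whether these shares differ was not tested.

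Ppara was at 246, 311, 250.2 and 284 CPM in the LFD, 429.9, 392, 484 and 605 CPM in the HFD, 434, 422, 477 and 417 CPM in the HFD + siRNA and 631, 537, 529 and 647 CPM in the HFD + Inhib group. Every HFD library lay above every LFD library, 1.75-fold on average (log2 fold change 0.81 ± 0.13 (SE), adjusted p = 0.000757), and the HFD + siRNA libraries stayed within the HFD range. Pparg, which drives fat storage genes, was at 6.71, 7.95, 8.24 and 8.24 CPM in the LFD, 11.3, 10.8, 12.5 and 11.1 CPM in the HFD, 11.8, 13.7, 11.4 and 9.55 CPM in the HFD + siRNA and 8.48, 10.3, 8.68 and 9.2 CPM in the HFD + Inhib group. It was 1.46-fold higher in HFD than in LFD (log2 fold change 0.55 ± 0.11 (SE), adjusted p = 0.00426), with its lowest HFD library above the highest LFD library. Ppard, the third PPAR gene and the most widely expressed, was at 18.2, 11, 20.4 and 5.41 CPM in the LFD, 5.93, 9.4, 6.71 and 5.71 CPM in the HFD, 6.77, 6.99, 5.48 and 16.8 CPM in the HFD + siRNA and 4.66, 4.9, 7.48 and 5.07 CPM in the HFD + Inhib group. Of its LFD libraries, 3 lay above every HFD library and 1 below every HFD library (-0.98, adjusted p = 0.0803), and it was called by DESeq2 (-0.99, adjusted p = 0.0347) and, by edgeR, without LFD replicate 4 (-1.24, adjusted p = 0.0166).

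Rxrg, a minor RXR gene in liver by level, was at 2.14, 3.08, 3.49 and 2.83 CPM in the LFD, 3.98, 5.14, 3.98 and 4.81 CPM in the HFD, 3.48, 2.91, 3.84 and 3.6 CPM in the HFD + siRNA and 3.32, 2.8, 3.11 and 3.6 CPM in the HFD + Inhib group. HFD stood above LFD without overlap, 1.55-fold (log2 fold change 0.63 ± 0.16 (SE), adjusted p = 0.013). Esrrg encodes ERRγ, an orphan receptor of energy metabolism. Its levels were 0.797, 5.7, 3.79 and 4.58 CPM in the LFD, 9.58, 7.86, 11.6 and 13.6 CPM in the HFD, 5.69, 7.65, 6.35 and 8.2 CPM in the HFD + siRNA and 11.3, 12, 18.1 and 18.5 CPM in the HFD + Inhib group. The LFD libraries were all below the HFD libraries, 2.84-fold on average (log2 fold change 1.504 ± 0.35 (SE), adjusted p = 0.00868), the largest change of a receptor gene called between the diets, at a low level.

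Nr1h2 (LXRβ, a sensor of oxysterols) was at 30.9, 21.9, 34.3 and 26 CPM in the LFD, 21.3, 19.8, 20.7 and 19.3 CPM in the HFD, 29.3, 20.6, 29 and 26.6 CPM in the HFD + siRNA and 20.03, 19, 15.7 and 16.3 CPM in the HFD + Inhib group. HFD was 1.39-fold lower than LFD (log2 fold change -0.48 ± 0.14 (SE), adjusted p = 0.0226), with a narrow gap between the groups, and with GC content and length of the transcripts fitted the value was -0.22 (adjusted p = 0.0289). Nr2c1 (TR2) was at 21, 16.4, 15.6 and 17 CPM in the LFD, 13.6, 12.1, 14.9 and 14.9 CPM in the HFD, 14.3, 15.7, 14.4 and 14.4 CPM in the HFD + siRNA and 23.4, 22.9, 24.8 and 21.9 CPM in the HFD + Inhib group. It was 1.27-fold lower on HFD (log2 fold change -0.34 ± 0.10 (SE), adjusted p = 0.0242), again without overlap, and at -0.51 with GC content and length. Nr2c2 (TR4, which can pair with TR2) was at 40.3, 45.6, 39.7 and 41.5 CPM in the LFD, 34.4, 29.1, 36 and 33.5 CPM in the HFD, 32.8, 29.6, 32.1 and 26.5 CPM in the HFD + siRNA and 36.7, 33.5, 35.9 and 40.7 CPM in the HFD + Inhib group. It was 1.26-fold lower (log2 fold change -0.33 ± 0.091 (SE), adjusted p = 0.0205), and 30.7% of its exon bases lie over Mrps25 on the opposite strand. The calls of Ppara, Pparg, Rxrg and Esrrg held without each library in turn, and the other 3 were lost without some. Nr1h2 was lost without LFD replicates 1 or 3 or HFD replicates 3 or 4 (log2 fold change -0.49 to -0.37, adjusted p = 0.0506 to 0.0923), Nr2c1 without LFD replicate 1 or HFD replicates 1 or 2 (log2 fold change -0.33 to -0.23, adjusted p = 0.0547 to 0.102) and Nr2c2 without HFD replicate 2 (log2 fold change -0.27, adjusted p = 0.061). Nr2f2 was called higher on HFD without LFD replicate 4 or HFD replicate 2 (log2 fold change 0.56 to 0.58, adjusted p = 0.0485 and 0.0407).

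**Figure D2:**
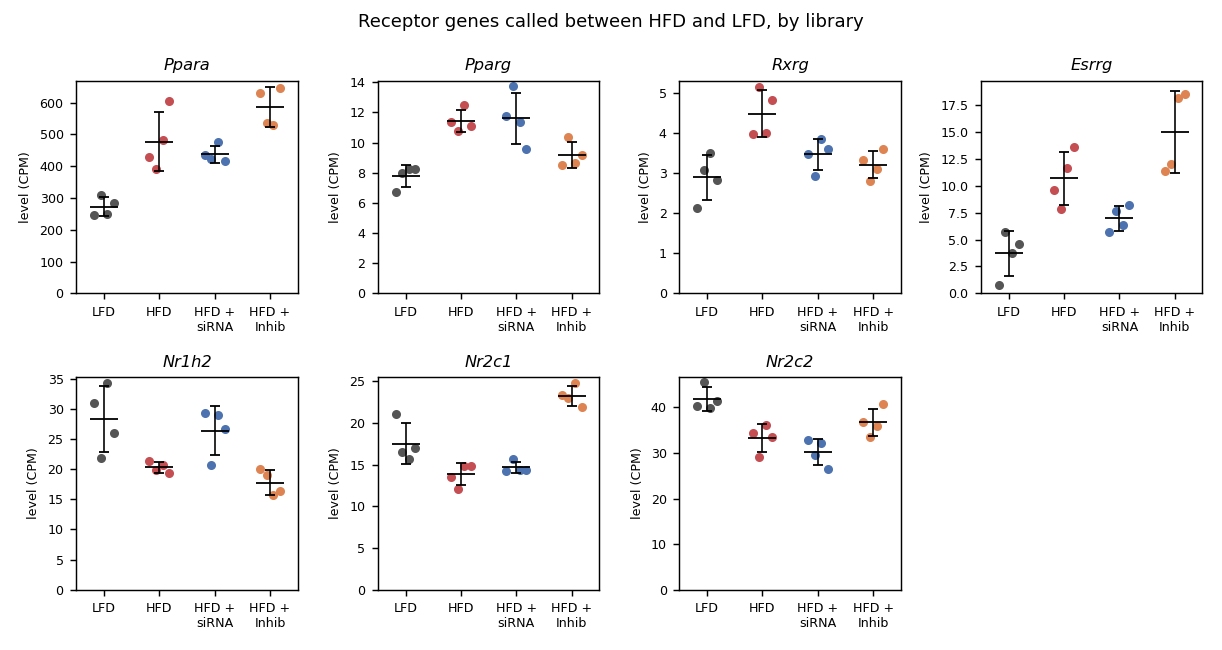
CPM in every library of the 7 receptor genes called between HFD and LFD, with 1 point per library, the mean as a bar and the SD as whiskers (n = 4 per group). Ppara, Pparg, Rxrg and Esrrg are higher in HFD than in LFD and Nr1h2, Nr2c1 and Nr2c2 lower, without overlap of the points.

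Genes downstream of these receptors were counted in lists, beside the 18.4% of all genes called. Shares called were 71.4% (PPARγ), 55.6% (ROR and REV-ERB), 42.9% (FXR), 38.5% (CAR and PXR), 35% (PPARα) and 33.3% (thyroid hormone receptor). They were 22.2% (immediate-early genes), 18.2% (glucocorticoid receptor), 16.7% (retinoic acid receptor), 10.5% (coregulators) and 0% (LXR, HNF4α and further receptors). Of 20 PPARα target genes, 7 rose on HFD and none fell, with a median log2 fold change of 0.34. In brackets after a gene is its log2 fold change, with the adjusted p of edgeR, and after a list its median. Among them were Fgf21, a fasting hormone of the liver (2.26, adjusted p = 0.00577), the fatty acid transporter Cd36 (1.78, adjusted p = 9.48e-05) and Vnn1 (1.44, adjusted p = 0.000532). Of 7 tested PPARγ targets (1.78), which include Cd36, 5 rose and none fell, led by the lipid droplet genes Cidea (4.55, adjusted p = 0.0185) and Cidec (3.04, adjusted p = 0.000261), and without HFD replicate 2 only 3 rose. None of the 10 LXR targets (0.22) was called by edgeR or DESeq2, 2 had an unadjusted p under 0.05, and 2 were called higher with GC content and length fitted. Of 13 CAR and PXR targets (-0.61), 1 rose, Cyp2b9 (7.61, adjusted p = 0.000109), and 4 fell, among them Ces2a (-1.90, adjusted p = 1.59e-06) and Cyp3a11, the main PXR-induced P450 gene of mouse liver (-1.24, adjusted p = 0.00245), and Nr1i2 and Nr1i3 themselves were not called. The number of these that fell was 7 by DESeq2, 6 with GC content and length and 4 to 8 with 1 library left out. Cyp2b9, Ces2a and Cyp3a11, like Cyp4a10 and Cyp4a14 below, have close copies in the genome between which RSEM divides shared reads, so that the values of single copies are uncertain.

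Of 7 tested FXR targets (0.072), Abcb4, the phospholipid pump of bile (0.57, adjusted p = 0.00337), rose, and Slc27a5 (-0.47, adjusted p = 0.0329) and the bile salt pump Abcb11 (-0.45, adjusted p = 0.013) fell. The FXR list pools genes that FXR induces with repressed ones such as Cyp8b1, so its median gives no direction of FXR activity. Of 6 thyroid hormone receptor targets (0.56), Dio1, which activates the hormone (1.48, adjusted p = 0.000117), and Gpd2 (0.61, adjusted p = 0.0159) rose. Of 11 glucocorticoid receptor targets (-0.083), Lcn2 (1.99, adjusted p = 0.00416) and Fkbp5 (0.89, adjusted p = 0.00299) rose. Of 6 retinoic acid receptor targets (-0.25), Cyp26a1, which degrades retinoic acid (-2.41, adjusted p = 0.0486), fell, and none was called with GC content and length. Of 9 tested ROR and REV-ERB targets (-0.16), which are clock genes, 2 rose, Per3 (1.85, adjusted p = 0.0344) and Per2 (1.14, adjusted p = 0.0124), and 3 fell, Npas2 (-1.80, adjusted p = 0.033), Nfil3 (-1.21, adjusted p = 0.017) and Cry1 (-1.07, adjusted p = 0.0408). No HNF4α target of 9 (-0.023) was called by edgeR or DESeq2, and 2 had an unadjusted p under 0.05. None of 8 tested further nuclear receptor genes (0.23) was called by edgeR and 1 by DESeq2, and 2 had an unadjusted p under 0.05. Of 19 coregulator genes (-0.11), 1 rose, Tbl1xr1 (0.57, adjusted p = 0.00452), and 1 fell (5 by DESeq2, none with GC content and length), and of 18 immediate-early genes (0.018) 2 rose, Egr2 (1.24, adjusted p = 0.0186) and Klf6 (0.56, adjusted p = 0.0444), and 2 fell, Egr1 (-2.03, adjusted p = 0.0299) and Ier2 (-0.84, adjusted p = 0.027). Among cell type markers, 3 of 9 hepatocyte markers fell, Apoa1, Asgr2 and Serpinc1, 1 of 8 stellate cell markers rose, Reln, and the pancreas gene Cela1 rose (0.66, adjusted p = 0.0185). The part of these in the receptor results was not tested.

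**Figure D3:**
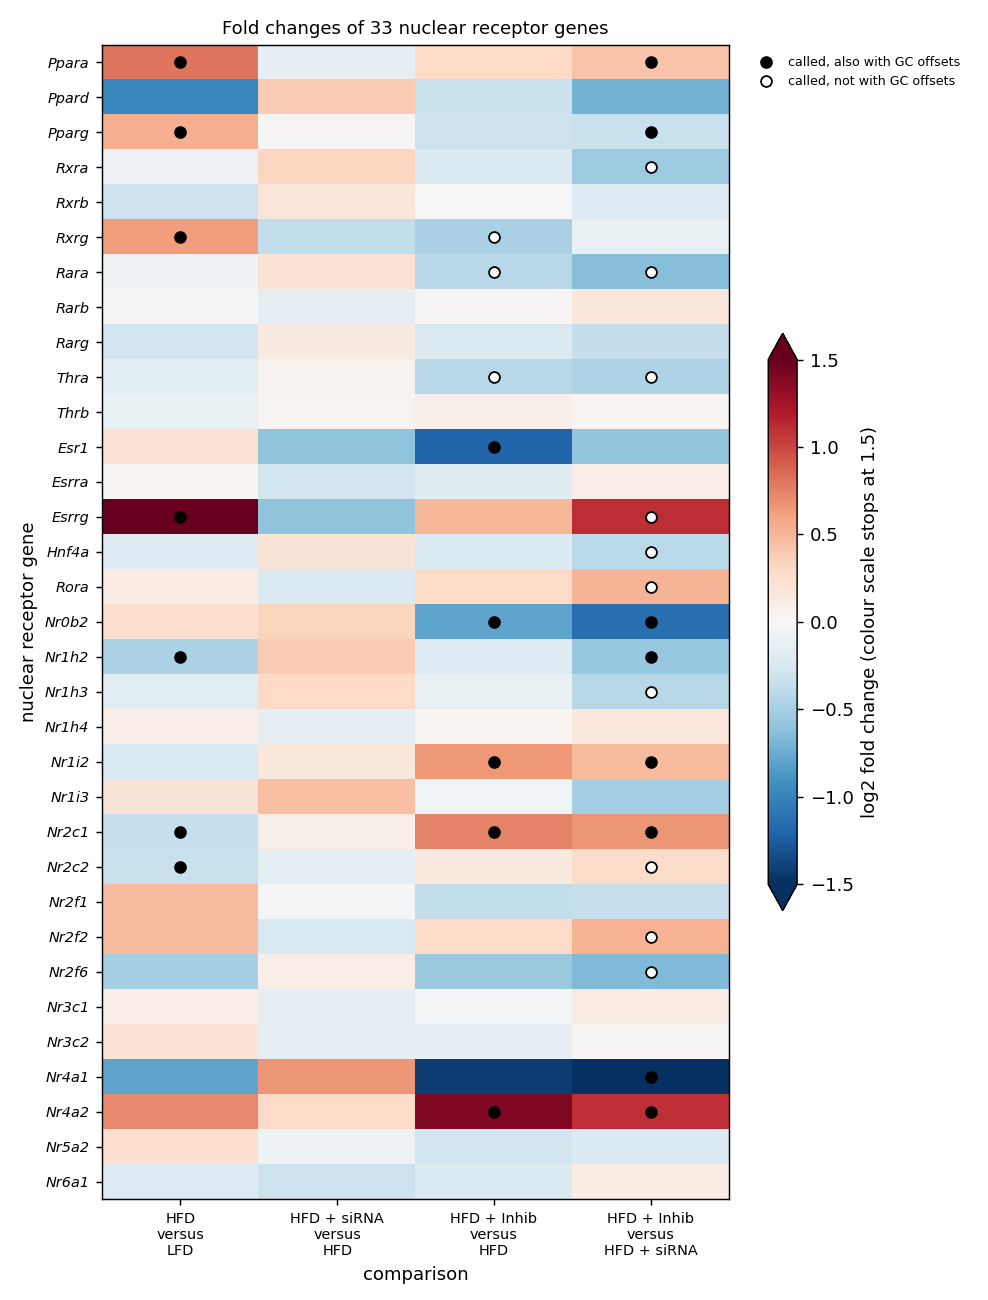
Log2 fold changes of the 33 tested receptor genes (rows) in the 4 comparisons (columns), from blue (lower in the group named first) to red (higher). Dots mark calls at an adjusted p under 0.05, filled where the call stayed when GC content and length of the transcripts were fitted as well. The HFD + siRNA versus HFD column holds no dot, and the column of HFD + Inhib versus HFD + siRNA holds 18.

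The comparison of HFD + siRNA with HFD asks what the loss of KHK from hepatocytes does. No receptor gene was called by edgeR in the fit of all 16 libraries, against 11.7% of all genes (5.2% higher, 6.55% lower), while 7 of 33 had an unadjusted p under 0.05 (26.9% of all genes) and DESeq2 called 2, Nr6a1 and Rxra, against 15.1% of all genes that it tested. The median log2 fold change of the receptor genes was 0.039, and that of all genes 0.022. The smallest adjusted p was that of Nr6a1 (GCNF, an orphan receptor), at 18.6, 18.5, 22 and 20.6 CPM in HFD and 18, 16.8, 15.4 and 13.4 CPM in HFD + siRNA. The groups of Nr6a1 did not overlap, and the log2 fold change was -0.32 ± 0.11 (SE, adjusted p = 0.0712). Rxra, the partner of many other receptors, was at 434, 349, 354 and 426 CPM in HFD and 495, 469.8, 569.7 and 425 CPM in HFD + siRNA (log2 fold change 0.33 ± 0.12 (SE), adjusted p = 0.0776), with 1 HFD + siRNA library inside the HFD range. Ppara differed by -0.13 ± 0.13 (SE) and Pparg by 0.022 ± 0.11 on the log2 scale, and neither was called. Single calls appeared for Nr6a1 without HFD + siRNA replicate 1 (-0.40, adjusted p = 0.0496), and for Nr1h2 without HFD + siRNA replicate 2 (0.46, adjusted p = 0.036) and Rara without HFD + siRNA replicate 2 (0.33, adjusted p = 0.0405). With GC content and length of the transcripts fitted, which left 8.98% of all genes called, Rxrg was called lower (-0.51, adjusted p = 0.0454). Esrrg, Nr1h2 and Nr1h3 were called when edgeR was fitted to only the 2 groups compared.

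Calls in the target lists are given beside the 11.7% of all genes called. Shares called were 50% (thyroid hormone receptor), 23.1% (CAR and PXR) and 20% (LXR). PPARγ targets (14.3%), HNF4α targets (11.1%) and coregulators (10.5%) lay near the share of all genes. PPARα targets (5%) and the lists without a call lay below it. Fasn and Scd1, lipogenic genes among the 10 LXR targets (-0.12), fell (-1.68, adjusted p = 0.00109 and -2.01, adjusted p = 0.000432), and the other 8 were not called, while Nr1h3 was at 59, 58.2, 51 and 56 CPM in HFD and 74.5, 67.1, 63.5 and 71.6 CPM in HFD + siRNA (log2 fold change 0.30 ± 0.12 (SE), adjusted p = 0.104), without overlap but not called. Of 6 thyroid hormone receptor targets (-0.57) 3 fell, the lipogenic genes Me1 (-1.60, adjusted p = 0.0006) and Thrsp (-0.98, adjusted p = 0.0339) and Gpd2 (-0.53, adjusted p = 0.0415), with Thra and Thrb not called. Only 2 of these fell with GC content and length fitted, and 1 without HFD replicates 2 or 3 or HFD + siRNA replicates 1, 3 or 4. The study counts Fasn and Scd1 in the fat synthesis pathway, which it describes as regulated by the transcription factor ChREBP. Which regulator accounts for the calls in these lists was not tested. Of 20 PPARα targets (-0.036) 1 fell, the peroxisomal enzyme gene Ehhadh (-0.65, adjusted p = 0.00842), and of 7 PPARγ targets (-0.20) Cidec (-1.12, adjusted p = 0.0499). Among 13 CAR and PXR targets (0.37) Abcc3 (0.54, adjusted p = 0.00434) and Ugt1a1 (0.50, adjusted p = 0.047) rose and Cyp3a11 fell (-0.85, adjusted p = 0.0265). Of 9 HNF4α targets (0.075) Mttp, which loads lipoproteins, fell (-0.52, adjusted p = 0.0152). Of 19 coregulators (0.027) Hdac3 rose (0.70, adjusted p = 0.000102) and Tbl1xr1 fell (-0.66, adjusted p = 0.0031). No FXR (0.16), glucocorticoid receptor (0.17), retinoic acid receptor (0.66) or ROR and REV-ERB target (-0.078), no further receptor (-0.33) and no immediate-early gene (0.15) was called by edgeR or DESeq2. At an unadjusted p under 0.05 there were 0, 3, 2, 2, 1 and 1 of these. Of the cell type markers only Asgr2 of hepatocytes (0.26, adjusted p = 0.0494) and Cela1 (0.65, adjusted p = 0.0256) were called, both higher. Both calls ended with GC content and length fitted, that of Asgr2 also without each of the 8 libraries in turn and that of Cela1 without each of 6 in turn.

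The comparison of HFD + Inhib with HFD asks what the inhibitor adds on the same diet. With the inhibitor, the genes of the xenobiotic receptor PXR, of TR2 and of the immediate-early receptor NURR1 rose, and those of the estrogen receptor ERα, SHP, RARα, the thyroid hormone receptor TRα and RXRγ fell. These were 8 of 33 receptor genes (24.2%), against 18.2% of all genes (9.8% higher, 8.42% lower). The median log2 fold change was -0.18 over the receptor genes and -0.0044 over all genes.

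Nr1i2, the PXR gene, was at 47.8, 56.8, 52.4 and 45.7 CPM in the LFD, 46.4, 38.6, 44.2 and 44.4 CPM in the HFD, 44.9, 49.997, 48.1 and 52.9 CPM in the HFD + siRNA and 73.7, 71.5, 64.6 and 63.1 CPM in the HFD + Inhib group. The 4 HFD + Inhib libraries lay above all others, 1.57-fold over HFD (log2 fold change 0.65 ± 0.089 (SE), adjusted p = 8.4e-05). Nr2c1, described above, stood at 23.4, 22.9, 24.8 and 21.9 CPM with the inhibitor, higher than in every library of the other groups and 1.68-fold over HFD (log2 fold change 0.75 ± 0.10 (SE), adjusted p = 5.55e-05). It was the gene called in the most comparisons, 3 of 4, lower on HFD than on LFD and higher with the inhibitor. Nr4a2 (NURR1), of a family that cells switch on within minutes to hours of a stimulus and that is not known to need a ligand, was at 0.21, 0.358, 0.806 and 0.857 CPM in the LFD, 0.696, 1.05, 1.29 and 0.743 CPM in the HFD, 1.01, 1.49, 1.43 and 0.733 CPM in the HFD + siRNA and 1.94, 3.42, 1.72 and 2.91 CPM in the HFD + Inhib group. It was 2.63-fold higher with the inhibitor than in HFD (log2 fold change 1.39 ± 0.35 (SE), adjusted p = 0.0115) without overlap, at a level close to the lower limit of what was tested.

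Esr1 (ERα, through which estrogen acts on hepatic lipid genes) was at 40.4, 18.4, 16.1 and 16.9 CPM in the LFD, 20.9, 32.2, 29.2 and 24.4 CPM in the HFD, 24.3, 14.5, 13.4 and 18 CPM in the HFD + siRNA and 16.6, 10.1, 11.5 and 8.43 CPM in the HFD + Inhib group. It was 2.29-fold lower with the inhibitor than in HFD (log2 fold change -1.20 ± 0.29 (SE), adjusted p = 0.00803), and 1 LFD library stood far above its group. Nr0b2, the FXR-induced gene of SHP, was at 24.4, 36.3, 50.2 and 22.2 CPM in the LFD, 43, 37.3, 42.2 and 34.4 CPM in the HFD, 61.3, 45.8, 36.8 and 53.6 CPM in the HFD + siRNA and 20.6, 29.8, 22.8 and 17.3 CPM in the HFD + Inhib group. It was 1.73-fold lower (log2 fold change -0.79 ± 0.23 (SE), adjusted p = 0.0227), and its HFD + Inhib libraries lay below all HFD and HFD + siRNA libraries.

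Rara (RARα, a retinoic acid receptor) was at 28.9, 29.99, 32.4 and 27.6 CPM in the LFD, 27.9, 28, 28.1 and 28.7 CPM in the HFD, 32.4, 23.5, 41.5 and 34.2 CPM in the HFD + siRNA and 18.3, 20.9, 22.3 and 22.8 CPM in the HFD + Inhib group. It was 1.34-fold lower than in HFD (log2 fold change -0.42 ± 0.13 (SE), adjusted p = 0.0311), where the HFD libraries hardly varied. Thra, the TRα gene, was at 23, 20.3, 29 and 22.1 CPM in the LFD, 22.2, 19.2, 20.5 and 22.4 CPM in the HFD, 22.7, 18.3, 22.7 and 23.6 CPM in the HFD + siRNA and 14.2, 14.9, 19 and 15.2 CPM in the HFD + Inhib group. It was 1.33-fold lower (log2 fold change -0.41 ± 0.12 (SE), adjusted p = 0.0263), with 1 HFD + Inhib library just below the lowest HFD library. Nr4a1, of the same family as Nr4a2, was at 7.69, 7.71, 20.7 and 12.7 CPM in HFD and 1.59, 6.84, 2.88 and 6.84 CPM in HFD + Inhib (log2 fold change -1.42 ± 0.54 (SE), adjusted p = 0.0818), without overlap but not called. Rxrg, with the values above, was 1.4-fold lower than in HFD (log2 fold change -0.48 ± 0.16 (SE), adjusted p = 0.0438), again without overlap.

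With GC content and length fitted, the calls of Rara, Thra and Rxrg ended (log2 fold changes -0.22, -0.24 and -0.41, adjusted p = 0.195, 0.166 and 0.0698), and the other 5 stayed. Pparg (-0.36, adjusted p = 0.0222) and Nr5a2 were called in addition, so that the fit called 7 of 33 receptor genes (21.2%), against 21.5% of all genes. The calls of Nr1i2, Nr2c1, Nr4a2 and Esr1 held without each library in turn; Nr0b2 was lost without HFD replicates 1 or 3 or HFD + Inhib replicates 1 or 4 (log2 fold change -0.76 to -0.68, adjusted p = 0.0505 to 0.0748), Rara without HFD replicates 1, 2, 3 or 4 or HFD + Inhib replicates 1 or 2 (log2 fold change -0.42 to -0.36, adjusted p = 0.0556 to 0.0864), Thra without HFD replicates 1 or 4 or HFD + Inhib replicates 1, 2 or 4 (log2 fold change -0.39 to -0.37, adjusted p = 0.0655 to 0.0758) and Rxrg without HFD replicates 1, 2 or 4 or HFD + Inhib replicates 1, 2, 3 or 4 (log2 fold change -0.54 to -0.41, adjusted p = 0.0501 to 0.132).

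**Figure D4:**
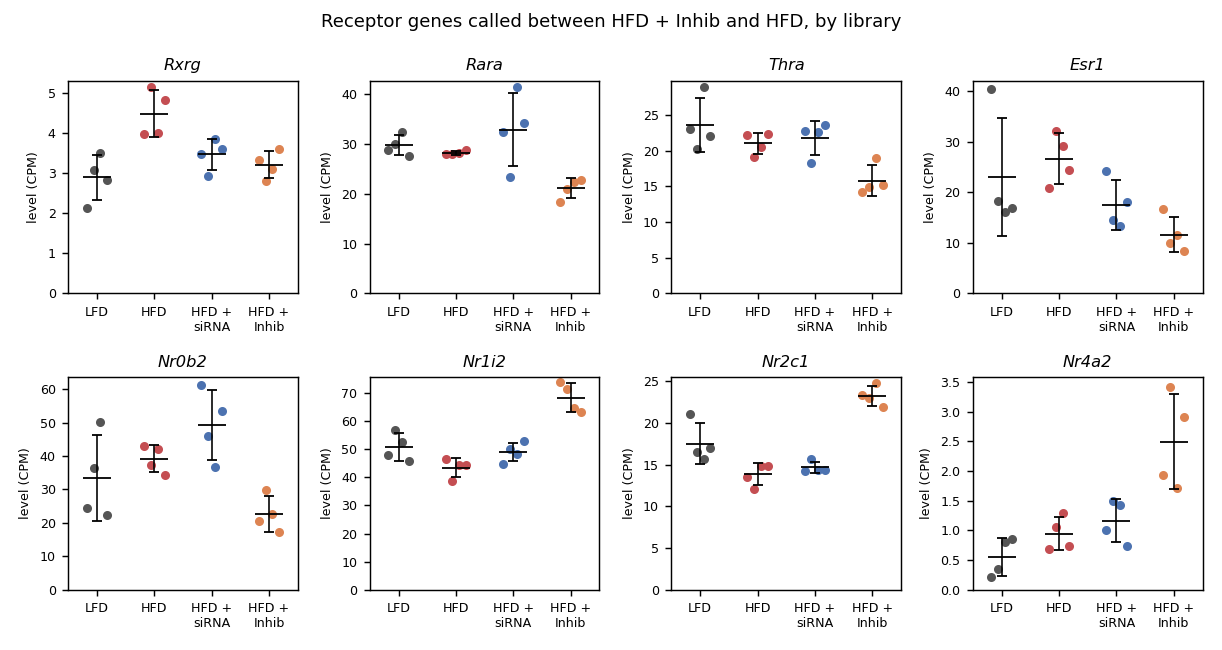
CPM in every library of the 8 receptor genes called between HFD + Inhib and HFD, with 1 point per library, the mean as a bar and the SD as whiskers (n = 4 per group). Nr1i2, Nr2c1 and Nr4a2 are highest in HFD + Inhib, and Rxrg, Rara, Thra, Esr1 and Nr0b2 lie below their HFD points.

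Ppara itself was 1.23-fold higher with the inhibitor than in HFD (log2 fold change 0.29 ± 0.13 (SE), adjusted p = 0.12), with 1 HFD library, replicate 4, reaching into the HFD + Inhib range, and it was called only without HFD replicate 4 (0.42, adjusted p = 0.0207). Pparg was at a log2 fold change of -0.32 ± 0.11 (SE, adjusted p = 0.0624), below HFD in every library and not called, and it was called without HFD + Inhib replicate 2 (-0.38, adjusted p = 0.0438) and with GC content and length fitted (-0.36, adjusted p = 0.0222). Of 20 PPARα targets 18 rose and none fell, with a median log2 fold change of 2.16, and of 7 PPARγ targets all 7 rose, with a median of 3.17. Without each HFD or HFD + Inhib library in turn, 16 to 18 and 6 to 7 rose. Cd36 is on both lists, and which receptor accounts for the rises was not tested. The ω-hydroxylase genes Cyp4a10 and Cyp4a14 led the first list (5.26, adjusted p = 3.37e-08 and 5.13, adjusted p = 3.1e-07), followed by Ehhadh (4.65, adjusted p = 4.23e-11). Cyp4a10 was at 100.1, 104, 179 and 135 CPM in HFD and at 5835, 5114, 4432 and 4460 CPM in HFD + Inhib. The second list was led by Cidea (5.03, adjusted p = 1.67e-05), Mogat1, an enzyme of triglyceride synthesis (3.37, adjusted p = 1.08e-06), and Fabp4, a fatty acid carrier of fat cells (3.30, adjusted p = 2.26e-07).

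Fabp4 was also the only gene of 4 adipocyte markers with enough counts to test. It was at 67.9, 68.5, 99 and 36.5 CPM in HFD + Inhib and at 6.03, 6.78, 7.81 and 6.96 CPM in HFD, while the defining marker Adipoq reached at most 0.0971 CPM in HFD + Inhib and 0.478 CPM in any library. Summed over the 4 markers, the level was 6.03, 7.81, 7.81 and 6.96 CPM in HFD and 67.9, 68.5, 99.1 and 36.5 CPM in HFD + Inhib, nearly all of it Fabp4.

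Lists of other receptors were split or had few calls, beside the 18.2% of all genes called. Shares called were 50% (thyroid hormone receptor), 46.2% (CAR and PXR), 44.4% (HNF4α), 30% (LXR) and 28.6% (FXR). They were 18.2% (glucocorticoid receptor), 16.7% (immediate-early genes), 12.5% (further receptors), 10.5% (coregulators) and 0% (retinoic acid receptor, ROR and REV-ERB). Of 13 CAR and PXR targets (0.21) 4 rose, among them Gadd45b (2.21, adjusted p = 0.0014), the P450 reductase gene Por (1.30, adjusted p = 0.00054) and the transporter gene Abcc3 (1.001, adjusted p = 6.95e-06), and 2 fell, Cyp2a5 (-2.25, adjusted p = 0.00202) and Gstm3 (-1.79, adjusted p = 0.000185). Of 10 LXR targets (0.19) 3 rose, Pltp (1.95, adjusted p = 2.71e-06), Lpcat3 (0.99, adjusted p = 8.08e-06) and Scd1 (0.95, adjusted p = 0.0178). Of 7 FXR targets (-0.18), Abcb4 rose (0.38, adjusted p = 0.0261) and Nr0b2, which is itself on that list, fell. Of 6 thyroid hormone receptor targets (0.55), Me1 (0.89, adjusted p = 0.00974) and Gpd2 (0.71, adjusted p = 0.00523) rose and Dio1 fell (-0.61, adjusted p = 0.027).

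Of 9 HNF4α targets (-0.30), Apoa2 rose (0.47, adjusted p = 0.0342), a call lost with GC content and length fitted and without some single libraries, and Ttr (-0.93, adjusted p = 5.55e-05), Apoc3 (-0.72, adjusted p = 0.0126) and F12 (-0.47, adjusted p = 0.00937) fell. Of 11 glucocorticoid receptor targets (-0.28), Lcn2 (-2.06, adjusted p = 0.00225) and Tsc22d3 (-0.87, adjusted p = 0.0177) fell. No retinoic acid receptor target (-0.0048) and no ROR and REV-ERB target (-0.45) was called by edgeR or DESeq2, and 1 of each had an unadjusted p under 0.05. With GC content and length fitted, 1 retinoic acid receptor target was called higher, and with 1 library left out 0 to 1. Of the 8 further receptors (-0.18) Hnf4g, a relative of Hnf4a better known from the gut, rose (2.28, adjusted p = 0.0116), from 0.53, 0.154, 0.303 and 0.235 CPM in HFD to 0.989, 0.894, 0.809 and 3.18 CPM in HFD + Inhib, a change at very low level that 1 library led. Of 19 coregulators (0.013) Nrip1 (0.46, adjusted p = 0.0217) and Hdac3 (0.35, adjusted p = 0.00443) rose. Of 18 immediate-early genes (-0.29), Myc rose beside Nr4a2 (0.94, adjusted p = 0.0441) and Ier2 fell (-0.76, adjusted p = 0.0475).

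Markers of cell types moved with the inhibitor too, where 18.2% of all genes were called. Summed over 9 hepatocyte markers, the level was 81929, 67742, 80494 and 81299 CPM in HFD and 53564, 50310, 53806 and 53699 CPM in HFD + Inhib; 3 of the 9 fell, Alb among them (-0.77, adjusted p = 0.000761). Of 8 Kupffer cell and macrophage markers 2 fell, and their sum, led by Clec4f, was 248, 255, 228 and 284 CPM in HFD and 243, 152, 185 and 202 CPM in HFD + Inhib. Of 8 stellate cell markers 2 fell, with sums of 446, 384, 359 and 371 and 292, 312, 294 and 276 CPM. Of 4 tested T and NK cell markers and of 4 B cell markers 2 fell in each list, at sums of no more than 7.09 CPM and 3.47 CPM in any HFD library.

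Of 8 endothelial markers 1 rose, Lyve1, a call lost without each of 6 of the 8 libraries in turn, with sums of 351, 317, 342 and 376 CPM in HFD and 324, 337, 340.2 and 321 CPM in HFD + Inhib, and none of 5 cholangiocyte, 5 red blood cell or 2 tested neutrophil markers was called by edgeR. The pancreas gene Cela1 fell (-1.57, adjusted p = 2.37e-05), whereas the other 3 pancreas markers were at or under 3 counts in every library. What these shifts contribute to the receptor results was not tested.

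The comparison of HFD + Inhib with HFD + siRNA tests the difference between the treatments directly. Here 18 of 33 receptor genes were called (54.5%), 8 higher and 10 lower with the inhibitor, against 33.8% of all genes (17.3% higher, 16.6% lower). At an unadjusted p under 0.05 there were 20, against 43.9% of all genes. The median log2 fold change was -0.19 over the receptor genes and -0.038 over all genes. Higher were the genes of the fatty acid receptor Ppara, of Esrrg, Nr1i2, Nr2c1, Nr2c2 and Nr4a2, of the clock receptor Rora and of Nr2f2. Lower were those of the obligate partner Rxra, of the sterol receptors Nr1h2 and Nr1h3, of Nr0b2, of Hnf4a, of the hormone receptors Rara and Thra, and of Pparg, Nr2f6 and Nr4a1.

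Of these 18, 8 stayed when GC content and length of the transcripts were fitted, and Nr5a2 was called in addition. That fit thus called 9 of 33 receptor genes (27.3%), against 28.2% of all genes, so the share of receptor genes no longer lay above that of all genes. The 8 were Ppara (1.34-fold higher, log2 fold change 0.42 ± 0.13 (SE), adjusted p = 0.0165), Nr1i2 (1.39-fold higher, log2 fold change 0.48 ± 0.089 (SE), adjusted p = 0.000692), Nr2c1 (1.58-fold higher, log2 fold change 0.66 ± 0.10 (SE), adjusted p = 9.48e-05), Nr4a2 (2.15-fold higher, log2 fold change 1.10 ± 0.35 (SE), adjusted p = 0.0226), Nr0b2 (2.18-fold lower, log2 fold change -1.13 ± 0.23 (SE), adjusted p = 0.00143), Nr1h2 (1.49-fold lower, log2 fold change -0.57 ± 0.14 (SE), adjusted p = 0.00421), Pparg (1.26-fold lower, log2 fold change -0.34 ± 0.11 (SE), adjusted p = 0.0289) and Nr4a1. Of these only Pparg overlapped between the groups. With GC content and length, Nr1h2 shrank to -0.24 (adjusted p = 0.0101) and Nr2c1 to 0.44 (adjusted p = 0.00279). Nr4a1 (NUR77), the second immediate-early receptor gene, was at 5.45, 19.4, 33.8 and 25.3 CPM in the LFD, 7.69, 7.71, 20.7 and 12.7 CPM in the HFD, 7.37, 23.3, 25.9 and 20.5 CPM in the HFD + siRNA and 1.59, 6.84, 2.88 and 6.84 CPM in the HFD + Inhib group. It was 4.24-fold lower with the inhibitor than with siRNA (log2 fold change -2.08 ± 0.55 (SE), adjusted p = 0.00786), opposite in direction to its relative Nr4a2. Its libraries spread several-fold within each group, and the HFD + Inhib libraries were all below those of HFD + siRNA.

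The other 10 calls ended with GC content and length fitted. Rxra, with the values above for HFD and HFD + siRNA, was at 360.3, 358, 291 and 339 CPM in HFD + Inhib and 441, 349, 432 and 436 CPM in LFD. It was 1.45-fold lower with the inhibitor than with siRNA without overlap (log2 fold change -0.54 ± 0.12 (SE), adjusted p = 0.00206), and -0.26 (adjusted p = 0.0845) with those terms. Hnf4a was at 619, 552, 528 and 517 CPM in the LFD, 506, 501, 492 and 443 CPM in the HFD, 519, 598, 519.5 and 576 CPM in the HFD + siRNA and 387, 423, 460.2 and 407 CPM in the HFD + Inhib group. It was 1.32-fold lower than with siRNA, again without overlap (log2 fold change -0.40 ± 0.089 (SE), adjusted p = 0.00267), and -0.20 (adjusted p = 0.103) with GC content and length.

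Nr1h3 (LXRα) was at 76.8, 54.5, 62.3 and 56.5 CPM in LFD and 62.5, 53.4, 43.5 and 48.6 CPM in HFD + Inhib beside the HFD and HFD + siRNA values above, 1.33-fold lower than with siRNA (log2 fold change -0.41 ± 0.12 (SE), adjusted p = 0.0129), and -0.14 with GC content and length. Rara and Thra were 1.56-fold and 1.38-fold lower than with siRNA (-0.64, adjusted p = 0.00123 and -0.47, adjusted p = 0.00758). Both again shrank, to -0.30 and -0.14. Nr2f6 (EAR2, a repressor of the COUP family) was at 117, 54.5, 104 and 65.1 CPM in the LFD, 69.4, 74.3, 46.8 and 50.9 CPM in the HFD, 78.5, 44.2, 70.01 and 66.7 CPM in the HFD + siRNA and 50.3, 45.9, 30.2 and 37.1 CPM in the HFD + Inhib group. It was 1.59-fold lower than with siRNA with overlap (log2 fold change -0.67 ± 0.24 (SE), adjusted p = 0.0437), and -0.31 with those terms. It has the highest GC content of the receptor genes, 67.3%.

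Rora (RORα, which activates clock genes) was at 110.1, 176, 123 and 125 CPM in the LFD, 132, 134, 164 and 152 CPM in the HFD, 132, 127, 115 and 129 CPM in the HFD + siRNA and 179, 155, 201 and 179.7 CPM in the HFD + Inhib group. It was 1.42-fold higher than with siRNA without overlap (log2 fold change 0.51 ± 0.13 (SE), adjusted p = 0.00612), and 0.14 with GC content and length. Its GC content of 40.9% is the lowest of the receptor genes. Nr2f2 (COUP-TFII, known from veins and stroma) was at 35.8, 31.5, 41.2 and 46.2 CPM in the LFD, 47.4, 40.4, 65.5 and 59.9 CPM in the HFD, 57.2, 34, 47.5 and 43.1 CPM in the HFD + siRNA and 77.2, 52, 60.9 and 70.8 CPM in the HFD + Inhib group. It was 1.44-fold higher than with siRNA with overlap (log2 fold change 0.52 ± 0.18 (SE), adjusted p = 0.0324), and 0.37 with those terms. Esrrg and Nr2c2 were 2.15-fold and 1.21-fold higher (1.10, adjusted p = 0.0191 and 0.28, adjusted p = 0.0264), and 0.80 and 0.17 with those terms.

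Of the 18 calls, 11 held without each library in turn, and between 11 and 16 receptor genes were called with 1 library left out. In place of 8 higher, there were 3 without HFD + Inhib replicate 4 and 5 without HFD + siRNA replicate 4. In place of 10 lower, there were 8 to 9 with 1 library left out. The call of Ppara was lost without HFD + Inhib replicate 4 (log2 fold change 0.37, adjusted p = 0.0544), Pparg without HFD + siRNA replicates 1, 2 or 3 or HFD + Inhib replicates 1, 3 or 4 (log2 fold change -0.34 to -0.23, adjusted p = 0.0594 to 0.119), Nr4a2 without HFD + siRNA replicates 1 or 4 or HFD + Inhib replicates 2 or 4 (log2 fold change 0.93 to 1.05, adjusted p = 0.056 to 0.0724), Esrrg without HFD + siRNA replicate 1 or HFD + Inhib replicates 3 or 4 (log2 fold change 0.99 to 1.03, adjusted p = 0.0513 to 0.0571), Nr2c2 without HFD + siRNA replicate 4 or HFD + Inhib replicate 4 (log2 fold change 0.23, adjusted p = 0.0729 to 0.0951), Nr2f2 without HFD + siRNA replicates 2, 3 or 4 or HFD + Inhib replicates 1 or 4 (log2 fold change 0.42 to 0.56, adjusted p = 0.0501 to 0.0836) and Nr2f6 without HFD + siRNA replicates 1, 3 or 4 or HFD + Inhib replicates 2, 3 or 4 (log2 fold change -0.71 to -0.55, adjusted p = 0.0568 to 0.128).

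Target lists differed between the treatments as well, where 33.8% of all genes were called. Shares called were 85% (PPARα), 85.7% (PPARγ), 77.8% (HNF4α), 66.7% (thyroid hormone receptor), 57.1% (FXR) and 53.8% (CAR and PXR). They were 44.4% (ROR and REV-ERB), 42.1% (coregulators), 40% (LXR), 37.5% (further receptors), 36.4% (glucocorticoid receptor), 33.3% (immediate-early genes) and 16.7% (retinoic acid receptor). Whether any list differed from all genes, and which receptor or other factor accounts for its calls, was not tested. Of 20 PPARα targets 17 were higher with the inhibitor and none lower (median log2 fold change 2.17), led by Cyp4a14 (5.49, adjusted p = 1.1e-07), and of 7 PPARγ targets 6 were higher (median 3.34), Cidea first (7.22, adjusted p = 2e-06), while Pparg was lower. Of 10 LXR targets (0.32) 4 were higher, among them Scd1 (2.96, adjusted p = 1.41e-06), Pltp (2.49, adjusted p = 1.61e-07) and Fasn (1.59, adjusted p = 0.000197), with Nr1h2 and Nr1h3 lower. Of 13 CAR and PXR targets (0.23) 4 were higher, Gadd45b (1.79, adjusted p = 0.00285) and Cyp3a11 (1.07, adjusted p = 0.00236) among them, and 3 lower, led by Cyp2a5 (-2.42, adjusted p = 0.000649). Of 6 thyroid hormone receptor targets (1.29) 4 were higher, Me1 (2.48, adjusted p = 1.24e-06), Thrsp (1.38, adjusted p = 0.00165) and Hr (1.34, adjusted p = 0.0307) furthest.

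Of 7 FXR targets (-0.32), Cyp8b1, a bile acid synthesis gene that FXR and SHP repress, was higher (0.74, adjusted p = 0.00525), and Nr0b2, Baat (-0.39, adjusted p = 0.00976) and Abcb11 (-0.32, adjusted p = 0.04) were lower. Of 9 HNF4α targets (-0.13) 3 were higher, Cyp8b1 and Mttp (0.67, adjusted p = 0.000884) among them, and 4 lower, led by Ttr (-1.18, adjusted p = 3.3e-06). Of 9 ROR and REV-ERB targets (-0.059) 4 were lower and none higher, among them Npas2 (-2.40, adjusted p = 0.00529), Nfil3 (-1.51, adjusted p = 0.0023) and Cry1 (-1.37, adjusted p = 0.00727), while Rora was higher. Of 11 glucocorticoid receptor targets (-0.47) 4 were lower, with the metallothionein genes Mt2 (-2.90, adjusted p = 0.00937) and Mt1 (-2.09, adjusted p = 0.0293), and of 6 retinoic acid receptor targets (-0.35) 1, Dhrs3 (-0.34, adjusted p = 0.0342), a call that ended with GC content and length.

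Of the 8 further receptors (0.24) 3 were higher, among them Hnf4g (2.67, adjusted p = 0.0028) and the clock repressor Nr1d2 (0.79, adjusted p = 0.0308), but without replicate 4 of HFD + siRNA or of HFD + Inhib only 1 was. The 19 coregulators (-0.026) were split at 4 higher, such as Tbl1xr1 (0.81, adjusted p = 0.000106) and Ppargc1b (0.76, adjusted p = 0.00951), and 4 lower. Of 18 immediate-early genes (-0.14), Nr4a2 and Myc (1.08, adjusted p = 0.0134) were higher and 4 lower, Nr4a1, Ier2 (-1.12, adjusted p = 0.00298) and Junb (-1.10, adjusted p = 0.0266) among them. With 1 library left out 0 to 2 were higher, none of them without HFD + Inhib replicate 2, and 2 to 5 lower, with 2 without HFD + siRNA replicate 3 or HFD + Inhib replicates 1 or 3. Hepatocyte markers were lower in 6 of 9, Kupffer cell and macrophage markers in 5 of 8 and stellate cell markers in 3 of 8. Endothelial markers were split at 1 higher and 1 lower, 1 B cell and 1 red blood cell marker were lower, 1 cholangiocyte marker was higher, Cela1 was lower (-2.22, adjusted p = 4.9e-07) and Fabp4 higher, and whether they bear on the receptor calls was not tested.

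The first 3 comparisons share the HFD libraries, and the last uses both treated groups again, so their calls are not independent. Over the 4, 20 of 33 receptor genes were called in at least 1 and 13 in none, against 47.5% of all genes called in at least 1. The 13 include the bile acid receptor Nr1h4, at 97.8, 105, 95.6 and 107 CPM on average on LFD, on HFD, with KHK siRNA and with the inhibitor, and the glucocorticoid receptor gene Nr3c1, at 108, 116, 105 and 114 CPM. Thrb was at 69.2, 64.3, 66.1 and 67.6 CPM. The log2 fold changes of these 3 in the 4 comparisons ran from -0.14 to 0.16, -0.14 to 0.12 and -0.11 to 0.073, with SEs of 0.081 to 0.086. The CAR gene Nr1i3 had averages of 81.5, 93.4, 127 and 89.4 CPM with a wide spread, from 44.9 to 103 CPM within LFD alone. Nr5a2, Nr3c2 (the mineralocorticoid receptor), Rxrb, Esrra, Rarb, Rarg, Ppard, Nr6a1 and Nr2f1 were the rest. With GC content and length fitted, Thrb was called lower on HFD than on LFD (-0.23, adjusted p = 0.0292). Rxrb was called lower on HFD than on LFD without LFD replicate 2 (-0.44, adjusted p = 0.0496). Nr5a2 was called lower with the inhibitor than in HFD without HFD replicate 2 (-0.37, adjusted p = 0.0392), and in both comparisons with the inhibitor when GC content and length were fitted (-0.35, adjusted p = 0.0173 against HFD and -0.46, adjusted p = 0.0021 against siRNA).

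GC content of the transcripts moved with the fold changes. Over 8321 well-expressed genes, Spearman's rho of log2 fold change and GC content was -0.526 for HFD versus LFD, 0.508 for HFD + siRNA versus HFD, -0.272 for HFD + Inhib versus HFD and -0.533 for HFD + Inhib versus HFD + siRNA. Over the 33 receptor genes, whose median GC content was 53.0% against 49.7% for those genes, it was -0.4, 0.519, -0.52 and -0.636. The points share libraries and are genes, not replicates, so the values are descriptions. With inhibitor against siRNA, GC-rich genes such as Nr2f6 (67.3%), Nr1h2 (60.6%) and Rara (59.2%) lay below 0, and GC-poor genes such as Rora (40.9%), Esrrg (42.5%) and Nr2c1 (43.8%) above. Among the exceptions were Nr5a2 (43.2%), at -0.21, and Esrra (61.8%), at 0.094 on the log2 scale, neither of them called. Of all 33 calls of a receptor gene in a comparison, 20 stayed with GC content and length fitted, 13 of them also without each library in turn. Whether the trend comes from the livers or from the making of the libraries was not tested.

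**Figure D5:**
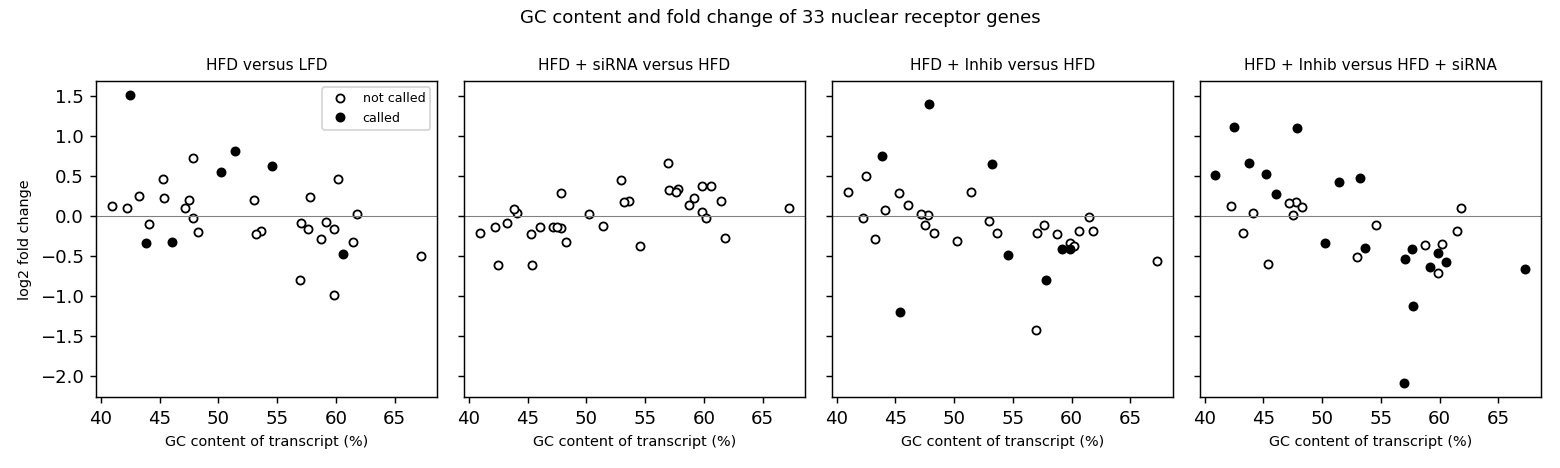
GC content of the transcript (percent) and log2 fold change of the 33 tested receptor genes, 1 panel per comparison, with filled points for genes called at an adjusted p under 0.05. The points slope down in 3 panels and up in that of HFD + siRNA versus HFD, with rho from -0.636 to 0.519.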

How the data were processed

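Liver RNA of 16 libraries was measured, and the labels gave the 4 groups of 4. The authors deposited expected counts per gene symbol, estimated reads that need not be whole (15.1% of values were not). The submitters' processing notes name STAR, RSEM and the mouse build mm39, without versions, whereas the methods of the study describe a targeted sequencing assay for its gene expression, a difference that could not be settled here. Estimated counts divide reads between similar genes and add an uncertainty that the tests do not carry.

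Expected counts were rounded to whole numbers and fitted with edgeR 4.0.16 (R 4.3.3) as a quasi-likelihood model of group over all 16 libraries, after filterByExpr (minimum count 10, minimum total 15) and TMM scaling (factors 0.93 to 1.09). P-values were adjusted by Benjamini-Hochberg over 18335 genes, with a threshold of 0.05. Errors of fold changes are standard errors. Library totals of 24317111 to 35820234 counts make counting error small for all but the lowest genes. Any 2 libraries of a group differed by more than counting noise (chi-square per gene 20.6 to 154 over 24 pairs).

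Transcript length and GC content came by symbol from GENCODE M21, the longest coding transcript of each gene, and promoters from RefSeq GRCm38.p6. The files are on another build, so no coordinates were carried across. GC content and length were fitted as smooth offsets per library for 15727 genes (85.8% of those tested). Alternatives were DESeq2 1.42.0, RLE scaling, other count filters, fits of 2 groups, a replicate block, a threshold of 0.01 and leaving out each library. Marker genes of other cell types were counted in the same fit, with 3 counts as the floor of detection.

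The 34 receptor genes and the lists were chosen with earlier results of these data known. Values in every library were given for each receptor gene called in at least 1 comparison, and of each list at most 3 called genes a direction, those with the largest change, were named with values. Genes added to these after their values were seen are Ppard, Nr6a1, Nr1i3, Nr1h4, Nr3c1, Thrb, Nr5a2, Rxrb and Esrra among the receptors. The levels of Cyp4a10 and Hnf4g and the cell type markers named singly were added in the same way. Some genes that the rule would name are not reported here.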

Additional observations from a re-analysis of the deposited data

Results flagged for a closer look

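In each group of 4 libraries, the gap of the highest or lowest library to the nearest other was set against the range of the group (Dixon's test). Chance gives about 1 in 20, and 7 of 132 groups of the receptor genes passed. Esr1 was at 40.4 CPM in LFD replicate 1 and at 16.1 to 18.4 in the other LFD libraries. Rarb was at 6.5 CPM in the same library, with 3.79 to 4.12 in the others. Rxra was at 349 CPM in LFD replicate 2 against 432 to 441, and Thrb at 74.6 CPM in that library against 67.1 to 67.6. Ppard was at 16.8 CPM in HFD + siRNA replicate 4 against 5.48 to 6.99, and at 7.48 CPM in HFD + Inhib replicate 3 against 4.66 to 5.07. Nr2c1 was at 15.7 CPM in HFD + siRNA replicate 2 against 14.3 to 14.4.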

How the results depend on the processing

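No call of a receptor gene changed direction under any alternative run. Of 33 calls of a receptor gene in a comparison, 33 were kept by DESeq2 and by RLE scaling, 28 without a filter on low counts, 31 with at least 10 counts in every library (Nr4a2 was then not tested), 31 with only the 2 groups compared and 20 with GC content and length fitted. With GC content and length, 9 receptor genes were called between HFD + Inhib and HFD + siRNA in place of 18, and between HFD + siRNA and HFD 1 in place of 0 and 1412 genes in all in place of 2154. DESeq2 called 2 and the fit of 2 groups 3 receptor genes (Esrrg, Nr1h2 and Nr1h3) between HFD + siRNA and HFD. At an adjusted p under 0.01, the receptor genes called were 3 (HFD versus LFD), 0 (HFD + siRNA versus HFD), 3 (HFD + Inhib versus HFD) and 10 (HFD + Inhib versus HFD + siRNA), and all genes 1287, 689, 1733 and 3711.

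Leaving out 1 library gave 5 to 9, 0 to 2, 4 to 7 and 11 to 16 receptor genes in the same order, and 2001 to 3691, 1100 to 1981, 2532 to 3050 and 4934 to 6251 genes in all. Receptor genes called higher were then 4 to 5, 0 to 2, 3 to 4 and 3 to 7. Those called lower were 1 to 4, 0 to 1, 1 to 4 and 8 to 9. Without HFD + Inhib replicate 4, 10 of 26 calls that use its group were lost, more than without any other library. Without each library in turn, 7 to 8, 16 to 18 and 16 to 18 PPARα targets were higher in HFD versus LFD and in the comparisons of HFD + Inhib with HFD and with HFD + siRNA. The other counts of list members that moved by over 1.5 times, or from 0, were the following.

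Between HFD and LFD, 3 to 5 PPARγ, 1 to 2 CAR and PXR, 1 to 2 thyroid hormone receptor and 1 to 3 ROR and REV-ERB targets, 0 to 2 further receptors and 0 to 2 immediate-early genes were higher. Lower were 4 to 8 CAR and PXR, 1 to 2 FXR, 0 to 1 retinoic acid receptor, 0 to 3 ROR and REV-ERB and 0 to 1 HNF4α targets, 0 to 3 coregulators and 0 to 3 immediate-early genes. Of the markers, 0 to 2 of stellate cells and 0 to 1 of pancreas were higher, and 0 to 1 of stellate and 0 to 1 of endothelial cells lower. Between HFD + siRNA and HFD, 1 to 2 CAR and PXR and 0 to 1 retinoic acid receptor targets and 0 to 1 pancreas markers were higher, and 0 to 1 PPARγ, 0 to 1 CAR and PXR and 1 to 3 thyroid hormone receptor targets and 1 to 2 coregulators lower. Between HFD + Inhib and HFD, 0 to 2 FXR, 0 to 1 retinoic acid receptor and 0 to 1 HNF4α targets, 0 to 1 further receptors, 1 to 2 coregulators, 1 to 2 immediate-early genes and 0 to 1 endothelial and 0 to 1 Kupffer cell and macrophage markers were higher. Lower were 0 to 1 FXR, 0 to 1 thyroid hormone receptor and 1 to 2 glucocorticoid receptor targets, 0 to 1 immediate-early genes, 1 to 3 Kupffer cell and macrophage markers, 1 to 2 markers each of stellate, T and NK and B cells, and 0 to 1 each of neutrophils and red blood cells. Between HFD + Inhib and HFD + siRNA, 1 to 3 further receptors, 0 to 2 ROR and REV-ERB targets, 0 to 2 immediate-early genes and 0 to 1 cholangiocyte markers were higher. Lower were 2 to 3 coregulators, 2 to 5 immediate-early genes, 0 to 1 each of the LXR, thyroid hormone receptor and retinoic acid receptor targets, 3 to 5 Kupffer cell and macrophage, 0 to 3 endothelial and 0 to 1 neutrophil markers.

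By DESeq2, 3 immediate-early genes were higher and 3 lower in HFD versus LFD (1 and 1 with GC content and length), and 2 CAR and PXR targets, 2 PPARα targets and 2 coregulators were lower in HFD + siRNA versus HFD in place of 1 each. The fit with GC content and length had 2 PPARα targets lower in that comparison. In HFD + Inhib versus HFD it had 2 FXR targets, 1 coregulator and 1 B cell marker lower, in place of 1, 0 and 2. In HFD + Inhib versus HFD + siRNA it had 2 coregulators and 3 Kupffer cell and macrophage markers lower and no cholangiocyte marker higher, in place of 4, 5 and 1. In HFD versus LFD it had 1 Kupffer cell and macrophage marker higher, in place of 0. Khk stayed called and in the same direction.

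The replicate numbers did not clearly pair the libraries. Deviations from the group means correlated at -0.132 to 0.336 between libraries with the same number (median 0.0678, 24 pairs). Between others they correlated at -0.265 to 0.193 (median -0.0171, 72 pairs). Correlations over 0.1 were seen in 6 of the 24 pairs and 12 of the 72, and whether some libraries share a source of variation was not tested. With the replicate number as a block, 32 of 33 calls were kept, that of Rxrg between HFD + Inhib and HFD was lost (adjusted p = 0.057), and 1 receptor gene was called between HFD + siRNA and HFD, Nr1h3 (0.30, adjusted p = 0.0471). The block also added Nr4a1, lowest in replicate 1 of each group, between HFD + Inhib and HFD (-1.49, adjusted p = 0.0103) and Nr2f2 between HFD and LFD (0.46, adjusted p = 0.0249). With the block and GC content and length together, 22 were kept, and HFD + siRNA versus HFD had 1 receptor gene and 1431 genes in all. The cause of these changes was not tested.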
